A study of Mus musculus with 7 samples.

Results

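The genes of cholesterol synthesis and of its sterol-sensing control were followed in 7 RNA sequencing libraries of mouse dendritic cells. The members were 31 of the 27179 genes counted. They were listed by function and found through their Entrez identifiers: 18 enzymes that build cholesterol, 5 genes of the SREBP pathway, 2 genes of sterol transfer and esterification, and 6 genes of sterol efflux and of the liver X receptors (LXR). All 31 were in the files, and 29 passed the filter on low counts that left 10863 genes for testing. The list was chosen by function with earlier fold changes between these groups in view, so the fold changes, adjusted p-values and counts of its members below are a description of the listed genes. They are no independent evidence that the pathway as a whole differed.

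The cells were CD8 dendritic cells of C57BL/6 mice, purified by fluorescence-activated cell sorting. Untreated cells were either CD103 negative (n = 3) or CD103 low (n = 2). The CD103 high cells (n = 2) came with the label CpG treated, CpG being a DNA motif sensed by Toll-like receptor 9, and form the CpG CD103 high group. Treatment and a high CD103 level always came together, so the effect of either cannot be told apart. A date label of 2012 belonged to both CpG CD103 high libraries and to CD103 negative replicates 1 and 2. A date label of 2013 belonged to both CD103 low libraries and to CD103 negative replicate 3. What was done on either date was not given in the sources used here, and neither were the tissue, the dose or the interval between treatment and sorting. The design text describes the libraries of a group as biological replicates.

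Cells make cholesterol from acetyl-CoA through mevalonate, isoprenoid diphosphates, squalene and lanosterol. When membrane sterol is low, the escort protein Scap carries the SREBP transcription factors to the Golgi, where they are cut free and switch on the genes of this route. When sterol is plentiful, the Insig proteins hold Scap back in the endoplasmic reticulum, and oxysterols bind LXR, which switches on the genes that send cholesterol out of the cell. In dendritic cells and macrophages, inflammatory signals and interferons are known to act on both arms.

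Among the members that were lower in CpG CD103 high cells than in CD103 negative cells, 5 of 8 had a promoter window in the RefSeq table of build GRCm38.p6, which covers 250 bases before and 50 bases after a gene's start. The windows are shown here, trimmed to the motif matches with up to 25 bases on either side and to the bases outside the gene's own span, because the synthesis genes are classical targets of SREBP. SREBP binds the sterol regulatory element next to the CCAAT-binding factor NF-Y. Capitals mark matches on either strand to the sterol regulatory element TCACNCCAC, to CCAAT (read as ATTGG on the other strand) and to the E-box CACGTG. Each is written 5′ to 3′ on the strand of its gene.
Hmgcs1, chr13:119690101-119690335, plus strand: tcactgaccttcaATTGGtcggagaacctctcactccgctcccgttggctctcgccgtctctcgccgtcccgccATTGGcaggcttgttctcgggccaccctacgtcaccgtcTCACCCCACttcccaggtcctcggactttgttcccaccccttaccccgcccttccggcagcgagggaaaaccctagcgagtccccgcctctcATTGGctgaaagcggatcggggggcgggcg
Cyp51, chr5:4104698-4104751, minus strand: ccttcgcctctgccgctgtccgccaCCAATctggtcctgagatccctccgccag
Msmo1, chr8:64733604-64733763, minus strand: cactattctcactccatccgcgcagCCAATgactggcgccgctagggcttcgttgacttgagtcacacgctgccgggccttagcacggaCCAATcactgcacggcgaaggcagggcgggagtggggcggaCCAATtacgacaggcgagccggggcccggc
Hsd17b7, chr1:169969249-169969395, minus strand: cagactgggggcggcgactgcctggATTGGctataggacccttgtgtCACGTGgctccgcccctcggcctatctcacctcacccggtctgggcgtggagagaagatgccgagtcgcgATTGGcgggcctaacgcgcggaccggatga
Insig1, chr5:28071171-28071341, plus strand: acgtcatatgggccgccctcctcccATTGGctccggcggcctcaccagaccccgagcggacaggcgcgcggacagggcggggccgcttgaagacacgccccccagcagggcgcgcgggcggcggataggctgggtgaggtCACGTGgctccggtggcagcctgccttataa

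A CCAAT match lay in all 5 of these windows, an E-box in 2 of them (Hsd17b7 and Insig1) and the sterol regulatory element in 1, that of Hmgcs1. Over the 18 windows of the synthesis enzymes, 14 (77.8%) held CCAAT, against 37.4% of all 32851 windows in the table. In the same 18 windows the E-box was found in 3 (16.7%), against 7.15% of all windows. The sterol regulatory element was found in 1 (5.56%), against 1.24% of all windows. The 8 windows of the efflux and LXR genes held CCAAT in 1 case (12.5%), and no member window held the LXR element DR4 (a direct repeat of AGGTCA), which occurred in 5 windows of the whole table. Several windows can belong to 1 gene, 26 of the 31 members had at least 1, and a match in these letters is a description of the sequence only.

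Library totals ran from 4474211 to 4629181 counts. Levels are given as counts per 1000000 counts of the scaled library (CPM), and a library's limit for a count of 0 (3 counts) was 0.638 to 0.690 CPM, covering counting error only. Itgae, which encodes CD103, stood at 54.3 to 62.7 CPM in the CD103 negative libraries, 346 and 375 in CD103 low and 992 and 1019 in CpG CD103 high, in the order of the labels. All 14 markers of type 1 conventional dendritic cells were measured, with a summed level of 16430 CPM or more in every library. Their sum was 24516 to 24521 CPM in CpG CD103 high and at most 19092 CPM in untreated cells. B cell markers summed to 11.8 to 13.2 CPM in CpG CD103 high against 68.5 to 94.6 CPM in untreated cells, and erythroid and platelet markers to 43.3 to 43.9 CPM against 3.29 to 22.5 CPM. In the same order, T and NK cell markers summed to 11.8 to 12.6 CPM against 15.8 to 60.2 CPM. Monocyte and neutrophil markers summed to 120 to 173 CPM against 195 to 282 CPM. For type 2 conventional dendritic cells the sums were 10.8 to 20.0 CPM against 20.5 to 67.7 CPM. For plasmacytoid dendritic cells they were 145 to 166 CPM against 133 to 227 CPM. Libraries of a group also differed. CD103 negative replicate 3 held 19.2 CPM of Siglech (plasmacytoid) and 21.3 CPM of Cd209a (type 2 conventional). Replicates 1 and 2 held 1.76 and 0.216 CPM of Siglech and 4.17 and 0.862 CPM of Cd209a. The plasmacytoid marker Ccr9 was level, at 69.8, 65.1 and 69.8 CPM in replicates 1 to 3. The T cell genes Trbc2 and Thy1 were at 10.6 and 10.3 CPM in CD103 low replicate 2 and at 0.908 and 0.227 CPM in replicate 1. The part of other cells in the results below was not tested.

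Compared per length, as CPM per kilobase of gene length (RPKM) averaged over the 7 libraries, the members spanned from 100 for Apoe, a lipoprotein component, to 0.0489 for Abca1. The 5 most abundant were Apoe, the transcription factor gene Srebf2 (97.7 RPKM), the LXR gene Nr1h2 (72.8), the sterol isomerase gene Ebp (42.9) and the sterol exporter gene Abcg1 (36.2). Apoe ranged from 62.4 RPKM in CpG CD103 high to 165 in CD103 low, so its order against Srebf2 (93.1 to 106 RPKM over the groups) changed with the group. Most enzymes were of middle level, such as Pmvk (25.1 RPKM), Nsdhl (18.1), Hmgcs1 (17.3) and Cyp51 (12.7). The lowest enzymes were Acat2 (2.05 RPKM), Tm7sf2 (1.61), Hsd17b7 (1.28) and Idi1 (0.758).

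In CpG CD103 high cells, 6 of the 18 cholesterol synthesis enzymes were lower than in CD103 negative cells, and 2 genes of sterol control were higher. Of the 29 tested members, 10 passed the threshold, an adjusted p under 0.05 over all genes in edgeR's quasi-likelihood test. The enzyme genes Hmgcs1, Fdft1, Sqle, Cyp51, Msmo1 and Hsd17b7, the SREBP brake gene Insig1 and the sterol carrier gene Stard4 were lower. Srebf1, which encodes SREBP-1, and Nr1h2, which encodes LXR beta, were higher. Over all genes tested, 26.3% passed in this comparison, 14.5% higher and 11.8% lower. Of the 18 synthesis enzymes none was higher and 12 did not pass. Their fold changes were negative in 16 of 18, with a median log2 fold change of -0.34, against -0.01 over all genes. The date term was in the model, so this comparison rested on the 4 libraries of 2012.

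The count of 10 was sensitive to single libraries. It fell in the fit without CpG CD103 high replicate 1 and in the fit without replicate 2 of that group. In both of these fits, with 1 CpG CD103 high library left, a smaller share of all genes passed as well. The count was 5 of 29 when either CD103 negative replicate of 2012 (replicate 1 or replicate 2) was left out. Over all genes, 16.1% and 17% then passed. DESeq2 called 3 of 29 members, Cyp51 and Stard4 lower and Nr1h2 higher, against 13.4% of all genes. Without the date term 6 of 29 were called, all lower, against 14.6% of all genes. There Fdft1, Msmo1, Srebf1 and Nr1h2 lost their calls. The call of Cyp51 held in all 14 alternatives that were run, and no called member changed direction in any of them. In bulk RNA of sorted cells, a lower level in every cell and fewer cells that carry the transcript cannot be told apart.

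**Figure D1:**
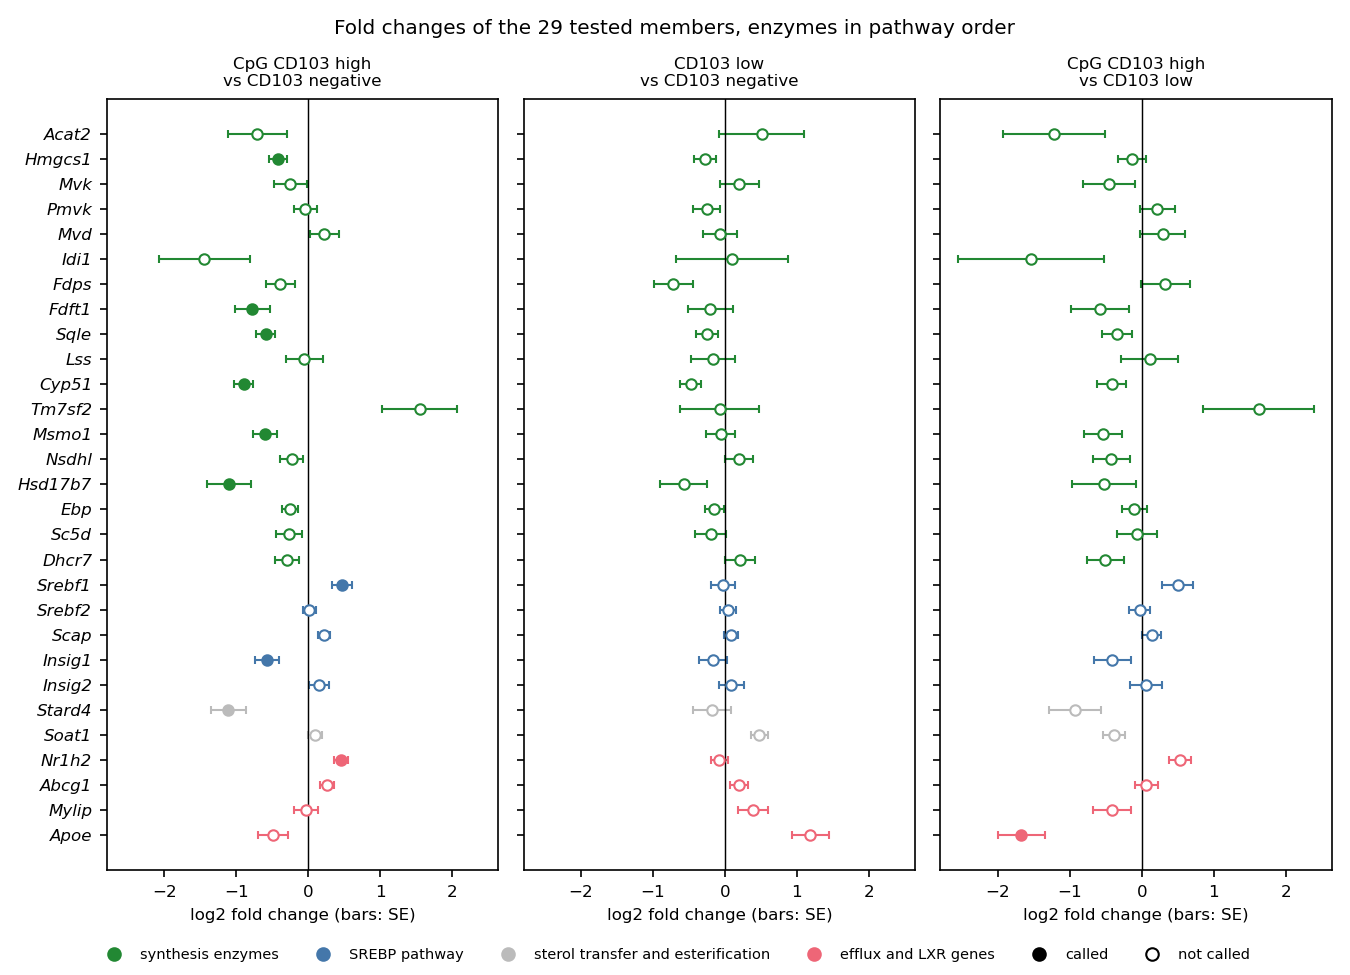
Log2 fold changes (x axis) of the 29 tested members (rows, enzymes in pathway order) in the 3 comparisons; bars are SE, filled points passed an adjusted p under 0.05, and colours mark the role. In the CpG CD103 high against CD103 negative panel the filled points of the enzymes lie left of 0 and those of Srebf1 and Nr1h2 right of it; the middle panel has no filled point, and in the right panel Apoe alone is filled.

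The first steps lead from acetyl-CoA to mevalonate. Hmgcs1, the synthase that makes HMG-CoA, lies on chr13:119690351-119708260 (mm10; Entrez 208715). It held 46.8 and 46.8 CPM in CpG CD103 high, 58.8, 66.4 and 67.7 CPM in CD103 negative and 60.2 and 51.5 CPM in CD103 low. Both CpG CD103 high libraries were below all 5 untreated ones, and the log2 fold change against CD103 negative was -0.42 (SE 0.12, adjusted p = 0.0329). Acat2, the thiolase of the entry step, was at 2.55 to 7.76 CPM and overlapped between the groups (log2 fold change -0.70, SE 0.41, adjusted p = 0.228). An annotated pseudogene overlaps Acat2, and the sources used here do not say how reads were divided between them.

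The kinases and the decarboxylase that follow gave no call. Mvk, mevalonate kinase, stood at 7.10 and 9.19 CPM with CpG and between 8.94 and 10.6 CPM in untreated cells. Pmvk, phosphomevalonate kinase, had a log2 fold change of -0.04 (SE 0.16), and Mvd, mevalonate diphosphate decarboxylase, one of 0.22 (SE 0.20). Mvd and Tm7sf2 were the only enzymes with a positive value in this comparison. Mvd is overlapped over 3213 bases by an annotated noncoding gene that was not among the genes counted. Idi1, the isomerase that makes dimethylallyl diphosphate, had a large negative value, -1.44, but also a large SE, 0.64 (adjusted p = 0.124). It rested on 9 and 2 counts in CpG CD103 high against 15, 16 and 9 in CD103 negative. Fdps, farnesyl diphosphate synthase, was at 14.6 CPM in both CpG CD103 high libraries, at 14.5 to 21.6 CPM in CD103 negative and at 7.49 and 10.1 CPM in CD103 low, where it was lowest.

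Fdft1, squalene synthase, stands at the branch from isoprenoids into sterols. Its level was 8.87 and 6.72 CPM in CpG CD103 high against 13.6 and 13.1 CPM in the CD103 negative libraries of the same date, a log2 fold change of -0.78 (SE 0.25, adjusted p = 0.042). CD103 negative replicate 3, at 8.94 CPM, and CD103 low replicate 2, at 9.20 CPM, were just above the higher treated library. CD103 low replicate 1, at 6.36 CPM, was below both treated libraries, so CpG CD103 high did not stand below all untreated libraries for this gene. Fdft1 also shares 774 bases with Ctsb, a far more abundant protease gene, and the sources used here give no strand setting for the counting. Up to this step, 2 of 8 enzymes were lower, against 11.8% of all genes, with a median log2 fold change of -0.40.

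From squalene onward, 4 of 10 enzymes were lower, against 11.8% of all genes, with a median log2 fold change of -0.28. Sqle, squalene epoxidase, is a rate-limiting enzyme of sterol synthesis (chr15:59315092-59331193; Entrez 20775). Its level was 24.6 and 27.8 CPM in CpG CD103 high, 39.96, 39.02 and 35.5 CPM in CD103 negative, and 30.2 and 29.7 CPM in CD103 low. The groups did not overlap and CD103 low lay between the other two; CpG CD103 high was below CD103 negative by a log2 fold change of -0.59 (SE 0.13, adjusted p = 0.00928). Lss, which closes squalene epoxide into lanosterol, was at 10.1 to 15.7 CPM with overlap of the groups (log2 fold change -0.06, SE 0.26). Lss overlaps a further annotated gene over 11269 bases, which had 5 counts in total over the 7 libraries.

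Cyp51, the demethylase that starts the conversion of lanosterol, had the lowest adjusted p of all members (chr5:4080674-4104697; Entrez 13121). Its level was 33.1 and 39.2 CPM in CpG CD103 high, 71.8, 62.5 and 73.4 CPM in CD103 negative and 52.9 and 52.6 CPM in CD103 low. The 3 groups were thus fully apart, with CpG CD103 high 1.86-fold below CD103 negative, a log2 fold change of -0.89 (SE 0.13, adjusted p = 0.00106). By group, the mean was 36.1 ± 4.36 CPM (SD, n = 2) in CpG CD103 high, 69.2 ± 5.89 CPM (SD, n = 3) in CD103 negative and 52.8 ± 0.185 CPM (SD, n = 2) in CD103 low.

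Msmo1, the oxidase that removes methyl groups from sterols (chr8:64718123-64733578; Entrez 66234), was at 16.4 and 18.2 CPM in CpG CD103 high. The CD103 negative libraries held 24.8, 27.6 and 23.4 CPM and the CD103 low ones 24.98 and 20.0 CPM. All 5 untreated libraries were above the treated ones, and the log2 fold change was -0.60 (SE 0.17, adjusted p = 0.0265). Nsdhl, which works in the same demethylation, was at 30.7 to 45.5 CPM with overlap (log2 fold change -0.23, SE 0.16).

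Hsd17b7, the ketoreductase of the same complex (chr1:169949535-169969242; Entrez 15490), was at 3.99 and 2.69 CPM in CpG CD103 high. It was at 7.25, 7.11 and 8.51 CPM in CD103 negative and at 5.90 and 5.52 CPM in CD103 low. As with Cyp51 and Sqle, the groups did not overlap and CD103 low was in between. The log2 fold change of CpG CD103 high against CD103 negative was -1.10 (SE 0.31, adjusted p = 0.0256).

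None of the last enzymes passed. Ebp, the sterol isomerase, stood at 71.2 and 61.4 CPM with CpG and between 73.1 and 83.0 CPM in untreated cells, without overlap but with a log2 fold change of only -0.25 (SE 0.11, adjusted p = 0.132). Sc5d, the desaturase, was likewise below all untreated libraries, at 26.4 and 28.46 CPM against 28.96 to 42.2 CPM (log2 fold change -0.26, SE 0.19). For Dhcr7, which makes cholesterol in the final reduction, the log2 fold change was -0.29 (SE 0.16, adjusted p = 0.215).

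Tm7sf2, a sterol reductase, had a positive value that did not pass the threshold. Its level was 2.44 and 4.03 CPM in CpG CD103 high, 1.32, 0.862 and 2.77 CPM in CD103 negative and 2.95 and 2.30 CPM in CD103 low (log2 fold change 1.55, SE 0.52, adjusted p = 0.0529). CD103 negative replicate 3 was above the lower of the treated libraries. With the stricter filter on low counts this gene passed, and the count of called members became 11.

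The 18 enzymes were also read library by library, with no test. In 7 of them (Hmgcs1, Sqle, Cyp51, Msmo1, Hsd17b7, Ebp and Sc5d) both CpG CD103 high libraries were below all 5 untreated libraries, and in none were both above. Over all genes tested, 17.6% were below and 16.3% above in this way. Over the 29 members, 9 were below (also Insig1 and Stard4) and 4 above (Srebf1, Insig2, Nr1h2 and Abcg1). Against the CD103 negative libraries alone, 10 members were below and 6 above without overlap, where 22.7% of all genes were below and 22% above. CD103 low was below CD103 negative in 4 members and above in 5, against 12.2% and 16.2% of all genes. CpG CD103 high was below CD103 low in 14 members and above in 5, against 30.6% and 28.1% of all genes.

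**Figure D2:**
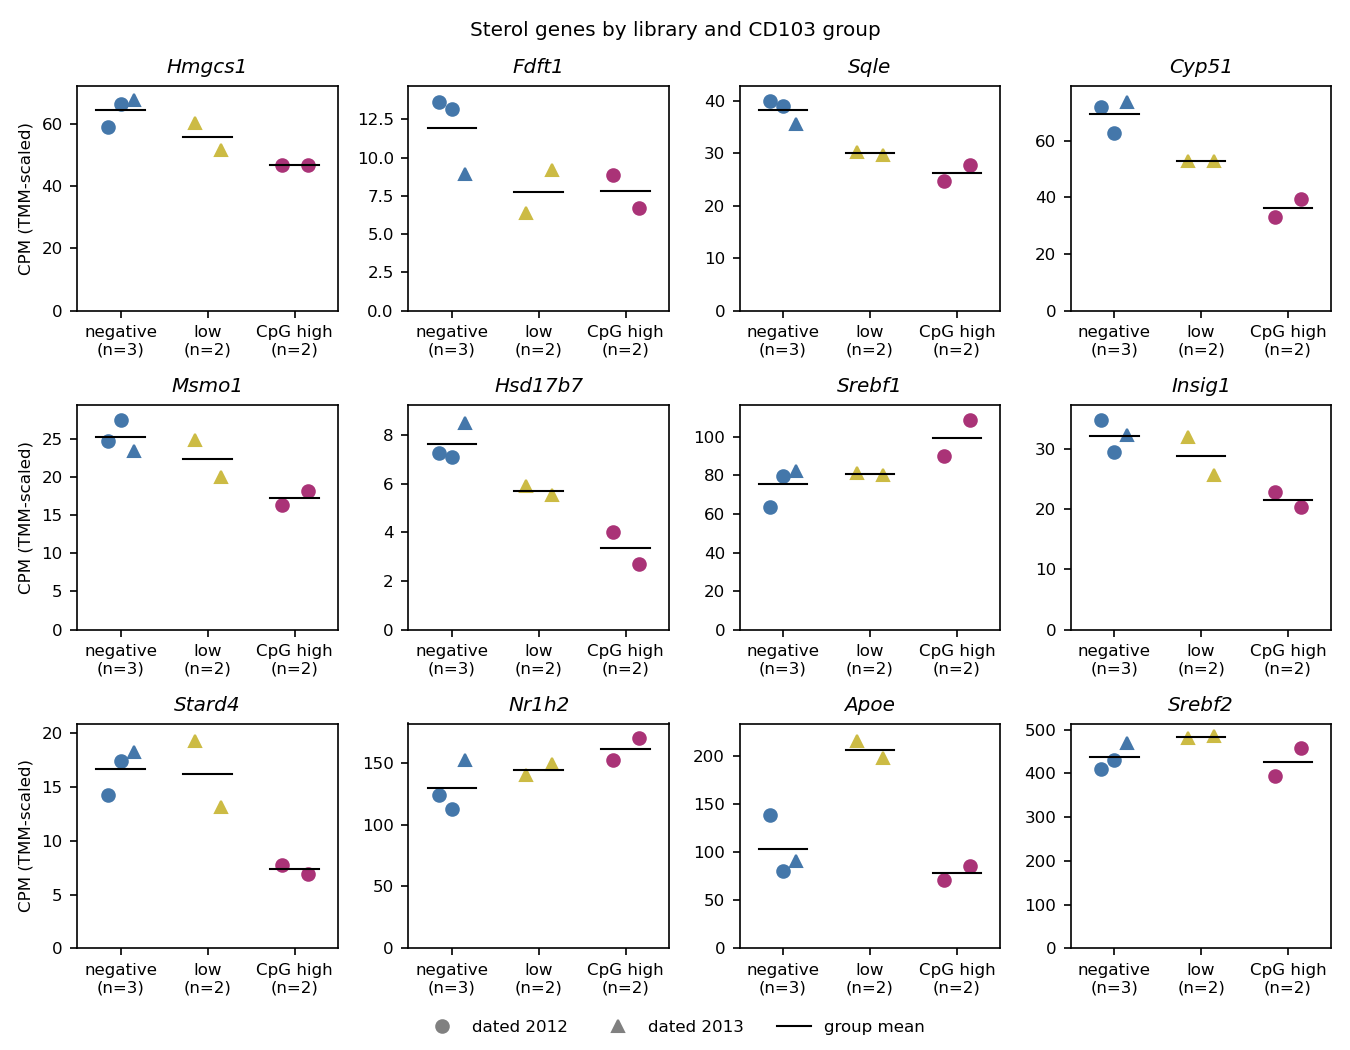
Level (CPM, y axis, from 0) of the 11 members called in any comparison and of Srebf2 in each library by group (x axis); circles are libraries dated 2012, triangles 2013, and lines are group means. Cyp51, Sqle and Hsd17b7 step down from CD103 negative over CD103 low to CpG CD103 high, Stard4 is low in CpG CD103 high, at 6.95 and 7.76 CPM, and Apoe is highest in CD103 low.

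The SREBP genes split. Srebf1, whose product SREBP-1 drives mainly fatty acid genes and is itself a target of LXR, was at 90.1 and 109 CPM in CpG CD103 high (chr11:60199084-60224186; Entrez 20787). The untreated libraries were at 63.7, 80.0 and 82.6 CPM (CD103 negative) and at 81.3 and 80.5 CPM (CD103 low). Both treated libraries were above all untreated ones (log2 fold change 0.47, SE 0.13, adjusted p = 0.028), but the call was lost without the date term and held in 6 of 14 alternatives. Srebf1 shares 114 bases with Rai1.

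Srebf2 encodes SREBP-2, the factor that drives most cholesterol synthesis genes. Its level was 394 and 457 CPM in CpG CD103 high, 410, 431 and 468 CPM in CD103 negative and 481 and 485 CPM in CD103 low. The treated libraries spanned nearly the same range as the CD103 negative ones, and the log2 fold change was 0.02 (SE 0.09, adjusted p = 0.91). Scap, the escort of both factors, was at 155 and 160 CPM against 133 to 157 CPM in untreated cells (log2 fold change 0.22, SE 0.08, adjusted p = 0.076).

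Insig1, which retains Scap and is an SREBP target itself, was lower, like the enzymes. It was at 22.9 and 20.4 CPM in CpG treated CD103 high cells, at 34.9, 29.5 and 32.4 CPM in CD103 negative and at 32.0 and 25.7 CPM in CD103 low (chr5:28071412-28078662; Entrez 231070). The treated libraries were below all untreated ones (log2 fold change -0.57, SE 0.16, adjusted p = 0.0286). Insig1 is overlapped over 7251 bases by an annotated noncoding gene that was not among the genes counted. Its paralogue Insig2 was at 29.06 and 33.8 CPM against 25.3 to 28.98 CPM in untreated cells, just above them and without a call (log2 fold change 0.15, SE 0.14, adjusted p = 0.47).

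Stard4, a soluble carrier that moves cholesterol between membranes and is a known SREBP-2 target, had the largest fold of the members called in this comparison. Its level was 7.76 and 6.95 CPM in CpG CD103 high, 14.3, 17.5 and 18.3 CPM in CD103 negative, and 19.3 and 13.1 CPM in CD103 low. CpG CD103 high was 2.15-fold below CD103 negative, under every untreated library (log2 fold change -1.11, SE 0.25, adjusted p = 0.0097). Soat1, which esterifies cholesterol for storage, was at 135 and 141 CPM against 135, 124 and 108 CPM in CD103 negative libraries, a log2 fold change of 0.10 (SE 0.09, adjusted p = 0.488).

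Of the 6 efflux and LXR genes, 4 were tested and 1 was higher, near the background of 26.3% of all genes called (14.5% higher). Their median log2 fold change was 0.12. It was -0.033 without CD103 low replicate 2, where 30 members were tested instead of 29, so that median covers a changed set of genes. Nr1h2, the gene for the widely expressed LXR beta, was at 153 and 170 CPM in CpG CD103 high (chr7:44549616-44553968; Entrez 22260). The CD103 negative libraries held 124, 113 and 153 CPM, the last being replicate 3, and the CD103 low libraries 140 and 149 CPM. The gap between the highest untreated and the lower treated library was thus very small, whereas the 4 libraries of 2012 were well apart (log2 fold change 0.45, SE 0.10, adjusted p = 0.00816). Without the date term the call was lost.

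Abcg1, which exports cholesterol to lipoproteins, was at 238 and 241 CPM in CpG treated CD103 high cells, 218, 181 and 182 CPM in CD103 negative, and 207 and 210 CPM in CD103 low. Both treated libraries were above all untreated ones, with a log2 fold change of 0.26 (SE 0.10, adjusted p = 0.0739). Mylip, a ubiquitin ligase that degrades lipoprotein receptors, was at 21.1 to 29.7 CPM with full overlap (log2 fold change -0.03, SE 0.17).

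The other classical LXR genes were close to the limit of detection. Abca1, the exporter that loads apolipoproteins, had 3 and 5 counts in CpG CD103 high, 1, 0 and 6 in CD103 negative and 0 and 1 in CD103 low. Nr1h3, the gene for LXR alpha, had 6 and 4 counts in CpG CD103 high, 4, 8 and 2 in CD103 negative and 12 and 4 in CD103 low. Neither passed the filter, and no difference was detectable at this depth. Reads of Nr1h3 may include some of Acp2, which overlaps it by 18 bases.

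CD103 low cells were compared with CD103 negative cells, both untreated. No member passed, of 29 tested, where 15 of all genes (0.138%; 0.0552% higher and 0.0829% lower) did. At an unadjusted p under 0.05 there were 4 members, against 797 of all 10863 genes. They were Cyp51 and Fdps with negative and Soat1 and Apoe with positive values, and DESeq2 called no member. With the date term, 3 libraries of 2013 carry this comparison, only 1 of them CD103 negative. The synthesis enzymes had a median log2 fold change of -0.16 (13 of 18 negative) and the tested efflux and LXR genes one of 0.29, against 0.01 over all genes. Without CD103 low replicate 2 these medians were 0.0712 and 0.50, so the direction of the enzyme median turned with 1 library. In that fit 30 members were tested instead of 29, so the efflux and LXR median covers a changed set of genes.

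Cyp51, Hsd17b7 and Sqle, lower in CpG CD103 high, had intermediate levels in CD103 low. They were named for this order after their values were seen. In the other called enzymes, Hmgcs1, Fdft1 and Msmo1, CD103 low overlapped CD103 negative. For Cyp51 the log2 fold change of CD103 low against CD103 negative was -0.48 (SE 0.15, adjusted p = 0.43). For Hsd17b7 it was -0.57 (SE 0.33, adjusted p = 0.769) and for Sqle -0.25 (SE 0.16, adjusted p = 0.804). Stard4 was near CD103 negative, with -0.17 (SE 0.26). The comparisons of CD103 low and of CpG CD103 high share the CD103 negative group, so their values are set side by side only. Between the dates, that is CD103 negative replicate 3 against replicates 1 and 2, no member passed in edgeR, against 3.46% of all genes. Under an unadjusted p of 0.05 were 2 members (Acat2 and Nr1h2), against 2215 of all 10863 genes.

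Apoe, the apolipoprotein that accepts exported cholesterol, had the largest fold change of all members between the untreated groups (chr7:19696244-19701310; Entrez 11816). Its level was 215 and 197 CPM in CD103 low, 138, 80.6 and 90.7 CPM in CD103 negative, and 70.8 and 85.4 CPM in CpG CD103 high. Both CD103 low libraries were above all others, while CpG CD103 high and CD103 negative overlapped. The log2 fold change of CD103 low against CD103 negative was 1.19 (SE 0.26, adjusted p = 0.146). In the 3 libraries of 2013 alone, the same comparison gave 1.17 (SE 0.11) and passed (adjusted p = 1.8e-05), with Soat1 as the other member (log2 fold change 0.47, SE 0.11, adjusted p = 0.0366). That fit takes the lone CD103 negative library to vary like the CD103 low ones, and in it 1.71% of all genes passed.

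CpG CD103 high cells were then set against CD103 low cells. The groups share no date, so the fitted difference runs through the CD103 negative libraries of both dates. Apoe was the only one of 29 members to pass, with a log2 fold change of -1.67 (SE 0.33, adjusted p = 0.0188), against 6.22% of all genes (3.44% higher, 2.78% lower). The call was lost without CD103 low replicate 1, without CD103 low replicate 2 and without the filter on low counts, with adjusted p up to 0.0943. DESeq2 also called 1 member, Apoe.

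Macrophages are rich in Apoe, and their markers were read beside it. The 17 macrophage markers, 10 of them tested, summed to 214 to 272 CPM in CD103 low, 147 to 217 CPM in CD103 negative and 397 to 482 CPM in CpG CD103 high, where Hmox1, at 335 and 447 CPM, made up most of the sum. Against CD103 negative, none of the 10 passed in CD103 low, where 0.138% of all genes did. In CpG CD103 high 1 was higher and 2 were lower, against 14.5% and 11.8% of all genes. In CD103 low replicates 1 and 2, Mertk was at 2.498 and 0.230 CPM, C1qa at 4.31 and 0.230 CPM, Csf1r at 17.3 and 12.2 CPM, Vcam1 at 79.7 and 56.1 CPM and Hmox1 at 117 and 125 CPM. Fcgr1 was at 0 in all 5 untreated libraries. The 9 monocyte and neutrophil markers summed to 266 to 282 CPM in CD103 low and 195 to 273 CPM in CD103 negative. In CpG CD103 high they summed to 120 to 173 CPM. Among them, Lyz2 was highest in CD103 low, like Apoe, at 243 and 230 CPM. It was at 162, 113 and 146 CPM in CD103 negative and 79.0 and 51.3 CPM in CpG CD103 high. Of the 6 tested, 2 were lower and none higher in CD103 low than in CD103 negative, where 0.138% of all genes passed. The part of macrophage or monocyte RNA in the Apoe values was not tested.

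Among the synthesis enzymes, none passed between CpG CD103 high and CD103 low, and DESeq2 called none. None was under an unadjusted p of 0.05, against 2553 of all 10863 genes. The enzymes had a median log2 fold change of -0.38 (13 of 18 negative), against -0.02 over all genes. The efflux and LXR genes had a median of -0.18, which was 0.0356 without the date term and 0.0549 without CD103 negative replicate 3. Nr1h2 had a log2 fold change of 0.53 (SE 0.15, adjusted p = 0.0707) and Stard4 one of -0.93 (SE 0.36, adjusted p = 0.155). Without the date term Cyp51 (log2 fold change -0.55, adjusted p = 0.049) and Stard4 (-1.14, adjusted p = 0.0263) passed beside Apoe, against 8.01% of all genes. The groups share no date, so without that term group and date cannot be told apart.

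Synthesis and efflux were compared across the 3 groups as list means of log2 CPM, with no test. Relative to the mean of the 7 libraries, the 18 enzymes stood at -0.17 and -0.22 in CpG CD103 high, at 0.13, 0.20 and 0.11 in CD103 negative, and at 0.08 and -0.14 in CD103 low. The treated libraries were thus lowest and the CD103 negative ones highest, and the CD103 low libraries lay on either side of the mean. The 4 tested efflux and LXR genes stood at -0.13 and 0.04 in CpG CD103 high, at 0.07, -0.28 and -0.18 in CD103 negative, and at 0.27 and 0.21 in CD103 low, the highest group. That order rested on Apoe. Without Apoe, a choice made after seeing the data, the other 3 genes stood at 0.06 and 0.20 in CpG CD103 high, 0.01, -0.21 and -0.13 in CD103 negative, and 0.06 and 0.02 in CD103 low, so that the highest library was CpG CD103 high replicate 2.

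The mean of the enzymes minus that of the 4 efflux and LXR genes, in log2 CPM, was -2.49, -2.07 and -2.27 in CD103 negative. It was -2.60 and -2.82 in CpG CD103 high and -2.75 and -2.90 in CD103 low. All 4 libraries of the CD103 expressing groups were therefore below the 3 CD103 negative ones, with CpG CD103 high and CD103 low overlapping. Without Apoe the values were -2.35, -2.06 and -2.24 in CD103 negative, -2.45 and -2.63 in CD103 low and -2.70 and -2.89 in CpG CD103 high, with CD103 low in between. In CpG CD103 high the enzymes were low, and in CD103 low Apoe was high.

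**Figure D3:**
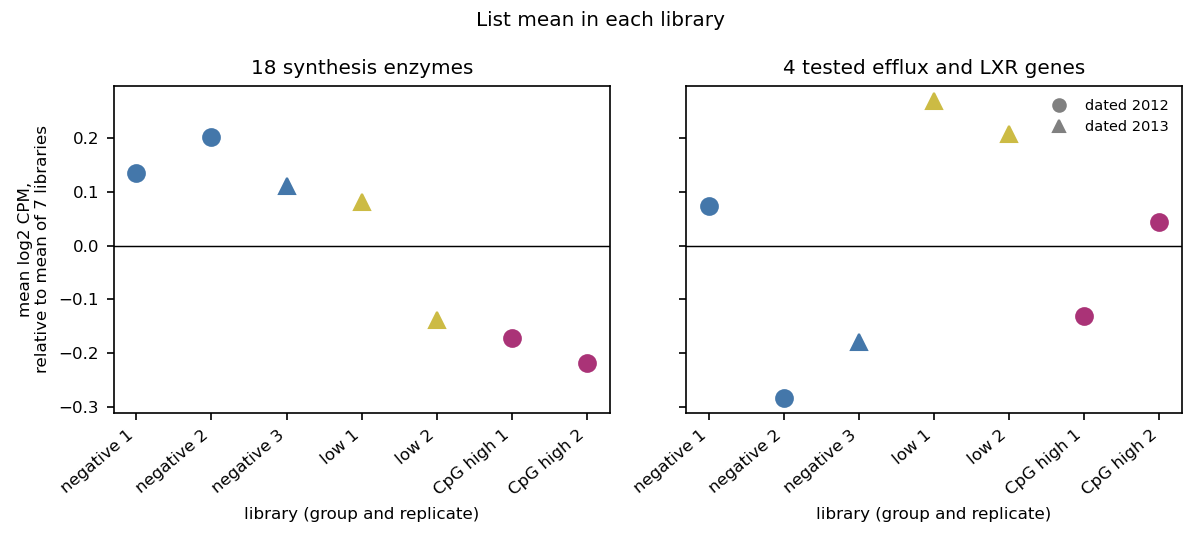
Mean log2 CPM of the 18 synthesis enzymes (left) and of the 4 tested efflux and LXR genes (right) in each library, relative to the mean of the 7 libraries (y axis); circles are dated 2012, triangles 2013. The enzymes are lowest in CpG CD103 high, at -0.17 and -0.22, and the efflux and LXR genes highest in CD103 low, at 0.27 and 0.21, an order that rests on Apoe.

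Further genes of sterol metabolism that are no members were counted from lists by function. Of 8 enzymes next to the pathway, 2 were lower and 1 higher in CpG CD103 high than in CD103 negative in edgeR, against 14.5% of all genes higher and 11.8% lower. DESeq2 called none of the 8. Acly, which supplies cytosolic acetyl-CoA from citrate, fell by a log2 fold change of 0.33 (SE 0.09, adjusted p = 0.0206). Cyb5r3, which feeds electrons to the sterol oxidases, fell by 0.32 (SE 0.10, adjusted p = 0.0358), while Acss2, which makes acetyl-CoA from acetate, rose by 0.65 (SE 0.14, adjusted p = 0.00848).

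Of the 8 tested genes of SREBP processing and turnover, 2 (25%) were higher and none lower, near the 26.3% of all genes that passed in either direction. They were Erlin2 (log2 fold change 0.46, SE 0.08, adjusted p = 0.00335) and Rnf145 (0.43, SE 0.10, adjusted p = 0.00969), which take part in the sterol-dependent control of Scap and Insig. Of the 9 tested genes of fatty acid synthesis and desaturation, which SREBP-1 drives, none passed in edgeR or DESeq2, and the median log2 fold change was -0.04. Under an unadjusted p of 0.05 were 2 of them, against 4249 of all 10863 genes. The level of Srebf1 and that of this list are given side by side, and no link between them was tested.

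Of 8 tested genes among other LXR-linked and lipoprotein genes, 4 were higher and 1 was lower, against 14.5% and 11.8% of all genes. The list had a median log2 fold change of 0.39. Rxra, the retinoid receptor that pairs with LXR, was at 118 and 115 CPM in CpG treated CD103 high cells, 75.3, 73.3 and 61.3 CPM in CD103 negative, and 77.0 and 78.2 CPM in CD103 low. The treated libraries were far above the untreated ones, which lay close together (log2 fold change 0.65, SE 0.09, adjusted p = 0.00103). Abca7, a transporter related to Abca1, had a log2 fold change of 0.76 (SE 0.15, adjusted p = 0.00459) and also differed between the dates (0.83). Without the date term its call was lost (log2 fold change 0.42, adjusted p = 0.291). The lipoprotein receptor gene Scarb1 had one of 0.40 (SE 0.09, adjusted p = 0.0122) and the LXR target Smpdl3a one of 0.43 (SE 0.12, adjusted p = 0.0242). Arl4c, another LXR target, was the gene that was lower (log2 fold change -0.73), named after its value was seen.

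All 3 tested oxysterol genes passed, 2 higher and 1 lower, against 14.5% and 11.8% of all genes. Cyp27a1, which makes an oxysterol in mitochondria, was at 215 and 348 CPM in CpG treated CD103 high cells, 132, 112 and 237 CPM in CD103 negative, and 271 and 271 CPM in CD103 low. CD103 negative replicate 3 was above 1 of the treated libraries, and Cyp27a1 also differed between the dates (log2 fold change of the date term 0.96, adjusted p = 0.046). Within the libraries of 2012 the groups were apart, and the log2 fold change was 1.21 (SE 0.19, adjusted p = 0.00144). Hsd3b7, which acts on oxysterols downstream, had a log2 fold change of 0.66 (SE 0.12, adjusted p = 0.00311). Its date term was 0.49 (unadjusted p = 0.00622, adjusted p = 0.0917). Without the date term the calls of Cyp27a1 (adjusted p = 0.0986) and Hsd3b7 (log2 fold change 0.48, adjusted p = 0.0849) were lost. Gpr183, the oxysterol receptor that guides dendritic cell migration, was at 0.887 and 0.224 CPM in CpG treated CD103 high cells, 11.4, 1.94 and 10.2 CPM in CD103 negative, and 1.14 and 0.690 CPM in CD103 low. It was thus low outside 2 of the CD103 negative libraries, and its log2 fold change of -3.51 had an SE of 0.94 (adjusted p = 0.0214). B cells also carry Gpr183. Their 7 markers summed to 11.8 to 13.2 CPM in CpG CD103 high, 76.5 to 94.6 CPM in CD103 negative and 68.5 to 71.5 CPM in CD103 low. All 3 tested were lower in CpG CD103 high than in CD103 negative, as were 11.8% of all genes. The part of B cells in the values of Gpr183 was not tested.

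Of 10 genes of sterol storage and trafficking, 5 were higher and none lower, against 14.5% and 11.8% of all genes. The list had a median log2 fold change of 0.35, but DESeq2 called none of its genes. Soat2, the second cholesterol-esterifying enzyme, was at 5.32 and 5.83 CPM in CpG treated CD103 high cells, 0.878, 2.37 and 1.92 CPM in CD103 negative, and 2.72 and 3.22 CPM in CD103 low. The treated libraries were above all untreated ones (log2 fold change 1.76, SE 0.45, adjusted p = 0.0181). Gramd1a, a carrier of plasma membrane sterol, rose by a log2 fold change of 0.65 (SE 0.19, adjusted p = 0.0288). Stard3, a late endosomal sterol carrier, rose by 0.40 (SE 0.12, adjusted p = 0.0291), and Lipa, the lysosomal esterase that frees cholesterol, rose by 0.31 (SE 0.09, adjusted p = 0.0348). In CD103 low against CD103 negative, none of the genes in any of these lists passed in edgeR or DESeq2. Under an unadjusted p of 0.05 were 8 of them, against 797 of all 10863 genes. In CpG CD103 high against CD103 low, Abca7 (log2 fold change 0.99, SE 0.23, adjusted p = 0.0326) and Cyb5r3 (-0.65, SE 0.15, adjusted p = 0.037) passed, and no other gene of these lists did. Over all genes, 6.22% passed. Abca7 overlapped between these groups, at 85.4 and 110.0 CPM against 89.0 and 86.2 CPM. Each call was lost in 8 of 13 alternatives, among them the fit without the date term, where the log2 fold change was 0.16 for Abca7 (adjusted p = 0.791) and -0.39 for Cyb5r3 (adjusted p = 0.112). Leaving out either CD103 low library, CpG CD103 high replicate 2 or CD103 negative replicate 1 also ended both calls.

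**Figure D4:**
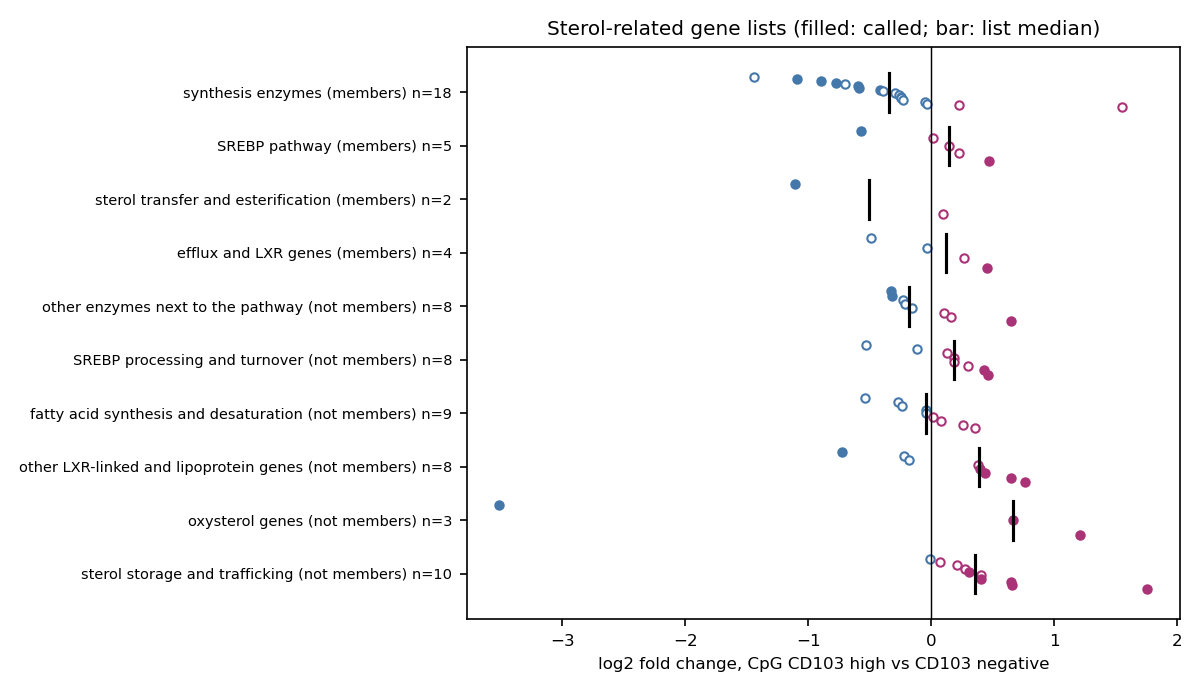
Log2 fold changes of CpG CD103 high against CD103 negative (x axis) of every tested gene in the member lists and in the further sterol lists (rows); filled points passed an adjusted p under 0.05 and black bars are list medians. The synthesis enzymes lie mostly left of 0 with a median of -0.34, while the storage and trafficking genes and the other LXR-linked genes have medians of 0.35 and 0.39.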

How the data were processed

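Each library had its own deposited table of unnormalized read counts by gene, with gene lengths, per the file headers. CASAVA, Subread 1.4.6, featureCounts and genome build mm10 are named per the submitters' processing notes. The annotation, strand setting and treatment of reads mapping to several places were not given in the sources used here. A table of the whole series, with 7 columns whose names match no label, was not used.

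Of 27179 Entrez identifiers, 25275 (93.0%) were paired with a symbol from RefSeq, and the unmatched ones, with 0.533% of counts, stayed in the tests. Counts were fitted with edgeR 4.0.16 (R 4.3.3) in a quasi-likelihood model with group and date over all 7 libraries: trimmed mean of M-values scaling, filterByExpr by group, 3 residual degrees of freedom, 2-sided tests and Benjamini-Hochberg adjustment over 10863 genes at 0.05. SE is the fold change divided by the square root of F. CPM and RPKM use the scaled library size, and list means use log2 CPM with a prior count of 2. The procedure was run on simulated counts with the same spread for every gene and no date effect, a simpler setting than these libraries.

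The members and lists were chosen with earlier results of these data known. All members are named, with full values for called members and for Srebf1, Srebf2, Insig1, Abca1, Abcg1 and Apoe. In other lists at most 4 called genes are named, by adjusted p, and Arl4c was added after its value was seen. A further gene is not reported here. Alternatives were other scaling, other filters, DESeq2 1.42.0, no date term, libraries of 1 date alone, a block for the replicate number, and each library left out in turn. Libraries of a group differed beyond sampling noise, so none was merged. Their numbers were not used as pairs.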

Additional observations from a re-analysis of the deposited data

How the results depend on the processing

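The median log2 fold change of the synthesis enzymes in CpG CD103 high against CD103 negative was negative in every alternative, from -0.44 to -0.28 with a library left out. The count of 10 called members became 6 without a filter on low counts, 3 with DESeq2 and 6 without the date term, and ran from 2 to 9 with a library other than CD103 negative replicate 3 left out (10 without that library, where no date term could be fitted). The efflux and LXR median ran from -0.033 (without CD103 low replicate 2) to 0.25. With that library, or either CpG CD103 high library, left out, 30 members were tested instead of 29. Without a filter all 31 were. Those efflux and LXR medians cover a changed set of genes. Calls of all genes went from 2860 (26.3%) to 1459 (13.4%) with DESeq2 and 2214 (13.5%) without a filter. They were 1589 (14.6%) without the date term and as low as 1738 (16.1%) with a library left out. Cyp51 kept its call in 14 of 14 alternatives, Sqle and Stard4 in 12, Nr1h2 in 11, Hsd17b7 in 10, Insig1 in 9, Hmgcs1 and Msmo1 in 8, Fdft1 in 7 and Srebf1 in 6. Of the genes named from other lists, Erlin2 and Rxra kept their calls in 14, Acss2, Abca7, Cyp27a1 and Hsd3b7 in 13, Rnf145 and Scarb1 in 12, Soat2 in 11, Acly in 10, Smpdl3a, Arl4c and Gramd1a in 9, and Stard3, Lipa and Cyb5r3 in 5 of 14, and Gpr183 in 7 of 10. No called gene of any list reversed.

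For CD103 low against CD103 negative, 0 called members became 2 in the 3 libraries of 2013 alone, and 0 to 1 with a library left out (2 without CD103 negative replicate 3). The enzyme median ran from -0.28 (without CD103 low replicate 1) to 0.0712 (without CD103 low replicate 2) and the efflux and LXR median from 0.24 to 0.50. Here too, 30 members were tested without CD103 low replicate 2 or either CpG CD103 high library. Those efflux and LXR medians cover a changed set of genes. Calls of all genes went from 15 to 40 with DESeq2, 1 without a filter, 187 in the libraries of 2013 alone, and 1 to 1035 with a library left out. The 1035 came without CD103 negative replicate 3. No date term could then be fitted, and CD103 low shared no date with the other groups. In that fit its group and date cannot be told apart. For CpG CD103 high against CD103 low, 1 called member became 0 without a filter and 3 without the date term, and ran from 0 to 1 with a library left out. Its enzyme median became -0.22 without the date term and ran from -0.39 to -0.24, and its efflux and LXR median became 0.0356 and ran from -0.55 to -0.0417. The fits with 30 members are among these. Without CD103 negative replicate 3 these were 3 members, -0.20 and 0.0549. Calls of all genes went from 676 to 263 without a filter, 382 with DESeq2 and 115 to 1668 with a library left out. The causes were not tested.

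A block for the replicate number, in place of the date term, gave 10, 2 (Fdps lower, Apoe higher) and 4 (Fdps higher; Cyp51, Stard4 and Apoe lower) called members in the 3 comparisons. All genes called were then 3013, 1175 and 1775, and in the last comparison the enzyme median was -0.22 and the efflux and LXR median 0.0368. Replicate number 3 belongs to CD103 negative alone, so the block takes up that library whole. CD103 low then shares no date with the libraries it is compared with, and the fit has no date term. In the 2 comparisons with CD103 low, group and date therefore cannot be told apart in this fit. Differences between replicates 1 and 2 correlated with r = 0.17 between CpG CD103 high and CD103 negative, whose replicates 1 and 2 share a date. They correlated with -0.0064 and 0.0024 in the other pairs of groups, where the dates differ. Whether equal numbers mark pairs cannot be told from these values. At this depth Abca1 and Nr1h3 could not be tested, and Idi1, Tm7sf2, Acat2 and Hsd17b7 rest on few counts. With 2 or 3 libraries a group and 3 residual degrees of freedom, a member that did not pass may still differ.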
